A study of Mus musculus with 8 samples.

Results

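The genes described here are 10 genes of insulin and leptin signalling, taken by symbol from the 41388 features counted in liver RNA: Insr, Irs1, Irs2, Pik3r1, Akt2, Foxo1, Lepr, Socs3, Grb10 and Igfbp1. All 10 were detected and passed the filter on low values. The study tested whether raising hepatic NAMPT, an enzyme of NAD salvage, alters glucose handling in diabetic db/db mice. Male littermate db/db mice on the C57B/6J strain were randomised at 5 weeks of age and injected through the tail vein with adenovirus encoding GFP (AdGFP, 4 mice) or NAMPT (AdNAMPT, 4 mice). Livers were taken at 10 weeks of age. The genotype label reads control for AdGFP and NAMPT overexpression for AdNAMPT, so the db/db background comes from the titles and the study. The promoter of the vectors, the feeding state and the hour of sampling are not given in the sources used here, which also differ on the time between injection and sampling.

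Insulin binds the receptor tyrosine kinase INSR, which phosphorylates the docking proteins IRS1 and IRS2. These recruit PI3-kinase, whose lipid product activates AKT2, and AKT2 phosphorylates the transcription factor FOXO1 and expels it from the nucleus. In fasted liver FOXO1 stays nuclear and raises gluconeogenic genes together with Irs2, Insr and Igfbp1. Leptin acts through LEPR, the kinase JAK2 and STAT3, which induces the feedback inhibitor SOCS3, and SOCS3 and GRB10 also restrain the insulin receptor. The db mutation disrupts the long, signalling isoform of LEPR, and the counts per gene do not separate the isoforms.

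Upstream sequences are shown for 4 of the genes whose windows held a letter string of these pathways outside any annotated exon: the FOXO1 targets Igfbp1 and Irs2, the other docking protein Irs1, and Socs3, a target of STAT3. They were read from RefSeq (GRCm38.p6) as the 250 bases before each annotated start, 5′ to 3′ on the strand of the gene, cut short where a GENCODE exon begins. Capitals mark matches to CAAAACA, the core of insulin response elements, or its reverse complement TGTTTTG, to the STAT palindrome TTCNNNGAA and to the E-box CACGTG, the last searched after the sequences had been read. Igfbp1 is from chr11:7197537-7197781 on the plus strand, Irs2 from chr8:11008930-11009179, Irs1 from chr1:82291440-82291689 and Socs3 from chr11:117969452-117969616, these 3 on the minus strand. The Socs3 stretch precedes a RefSeq start but lies inside the gene span used for the counts (chr11:117966079-117970047). It is therefore not upstream of the whole gene by that annotation.
Igfbp1: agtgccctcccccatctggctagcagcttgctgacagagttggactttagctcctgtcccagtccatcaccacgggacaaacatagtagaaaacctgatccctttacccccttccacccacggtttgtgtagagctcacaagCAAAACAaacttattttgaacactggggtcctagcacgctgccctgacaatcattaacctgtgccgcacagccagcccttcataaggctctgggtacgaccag
Irs2: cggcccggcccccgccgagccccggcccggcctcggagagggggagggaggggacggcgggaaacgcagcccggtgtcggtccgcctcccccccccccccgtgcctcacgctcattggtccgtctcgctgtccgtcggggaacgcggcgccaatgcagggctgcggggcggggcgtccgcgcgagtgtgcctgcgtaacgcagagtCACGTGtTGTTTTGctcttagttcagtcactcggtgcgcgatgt
Irs1: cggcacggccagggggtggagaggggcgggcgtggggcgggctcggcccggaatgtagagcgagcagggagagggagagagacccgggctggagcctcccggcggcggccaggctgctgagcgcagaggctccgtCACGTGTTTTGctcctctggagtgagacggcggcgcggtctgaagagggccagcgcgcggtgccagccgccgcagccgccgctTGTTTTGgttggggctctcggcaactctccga
Socs3: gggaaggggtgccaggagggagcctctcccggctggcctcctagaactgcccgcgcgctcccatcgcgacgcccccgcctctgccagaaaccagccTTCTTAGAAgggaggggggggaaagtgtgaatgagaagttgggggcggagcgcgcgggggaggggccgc

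The core stood 108 to 102 bases before the start of Igfbp1 and 37 to 31 before that of Irs2. Irs1 held it at 111 to 105 and again at 32 to 26, and its E-box shares 2 letters with the farther match. Socs3 held TTCTTAGAA at 154 to 146 before its RefSeq start, inside the gene span used for the counts. Over both strands, CAAAACA occurred in 5.56% of 32851 such windows of all genes, TTCNNNGAA in 7.02% and CACGTG in 6.02%. Of the 15 starts listed for 9 of the 10 genes, 4 held CAAAACA (the other one lies in exon sequence of Lepr), 2 held TTCNNNGAA (the other one is the farthest upstream start of Akt2, TTCGGGGAA at 160 to 152), 2 held CACGTG and 0 held the forkhead consensus GTAAACA, which occurred in 3.17% of all windows. Insr has no entry in the table. A match is a description of the letters and does not show that a factor binds there.

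The libraries held 12006713 to 19879814 counts, so that 3 counts correspond to 0.151 to 0.250 CPM, the count scaled to the total of its library. Hepatocyte markers dominated every library, with 8 marker genes summing to 102892 to 129963 CPM, and all 8 were detected. Of 8 Kupffer cell and macrophage markers, all with reads, 8 had an estimate below 0 in AdNAMPT (median log2 fold change -0.38) and 0 passed the adjusted test. At an unadjusted p under 0.05 there were 3 of these 8 (9.69% of all genes), and for 2 the groups did not overlap on the normalised scale (4.79% of all genes), each lower in AdNAMPT. Their summed level was 262 to 323 CPM in AdGFP and 190 to 314 CPM in AdNAMPT. In bulk tissue, fewer cells of a type cannot be told apart from less RNA per cell, and the part of cell makeup in the values below was not tested. The transcript Gm42418 took 0.996% to 2.25% of counts in AdGFP and 0.200% to 0.233% in AdNAMPT. Ribosomal RNA features, left out of the fits, took 1.77% to 2.63% in AdGFP and 0.863% to 1.62% in AdNAMPT. The groups did not overlap in either share. Nampt, which the vector should raise, did not separate the labelled groups (log2 fold change 0.08, SE 0.15, limma adjusted p = 0.915).

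None of the 10 genes differed between AdNAMPT and AdGFP beyond the spread between mice. Of 10 tested, 0 passed an adjusted p of 0.05 in limma's voom fit, against 34 of 12270 genes (0.277%), of which 32 were lower in AdNAMPT and 2 higher. Before adjustment, 0 of 10 had a p under 0.05, against 9.69% of all genes (4.65% higher and 5.04% lower in AdNAMPT). The groups overlapped for all 10 genes. Among all genes they did not overlap for 4.79% on the normalised scale (2.09% higher and 2.7% lower in AdNAMPT) and for 8.22% on the scale of the deposited CPM. The quasi-likelihood test of edgeR and the DESeq2 Wald test also called 0 of the 10. The median log2 fold change of the 10 was -0.05 (4 above 0 and 6 below), beside 0.00 for all genes, and it turned to 0.03 when counts were scaled by library size alone. Log2 fold changes are AdNAMPT over AdGFP and include normalisation (TMM) factors of 0.947 to 0.977 in AdGFP and 1.01 to 1.05 in AdNAMPT, which the CPM do not, so a small difference in mean CPM and a fold change can have opposite signs.

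**Figure D1:**
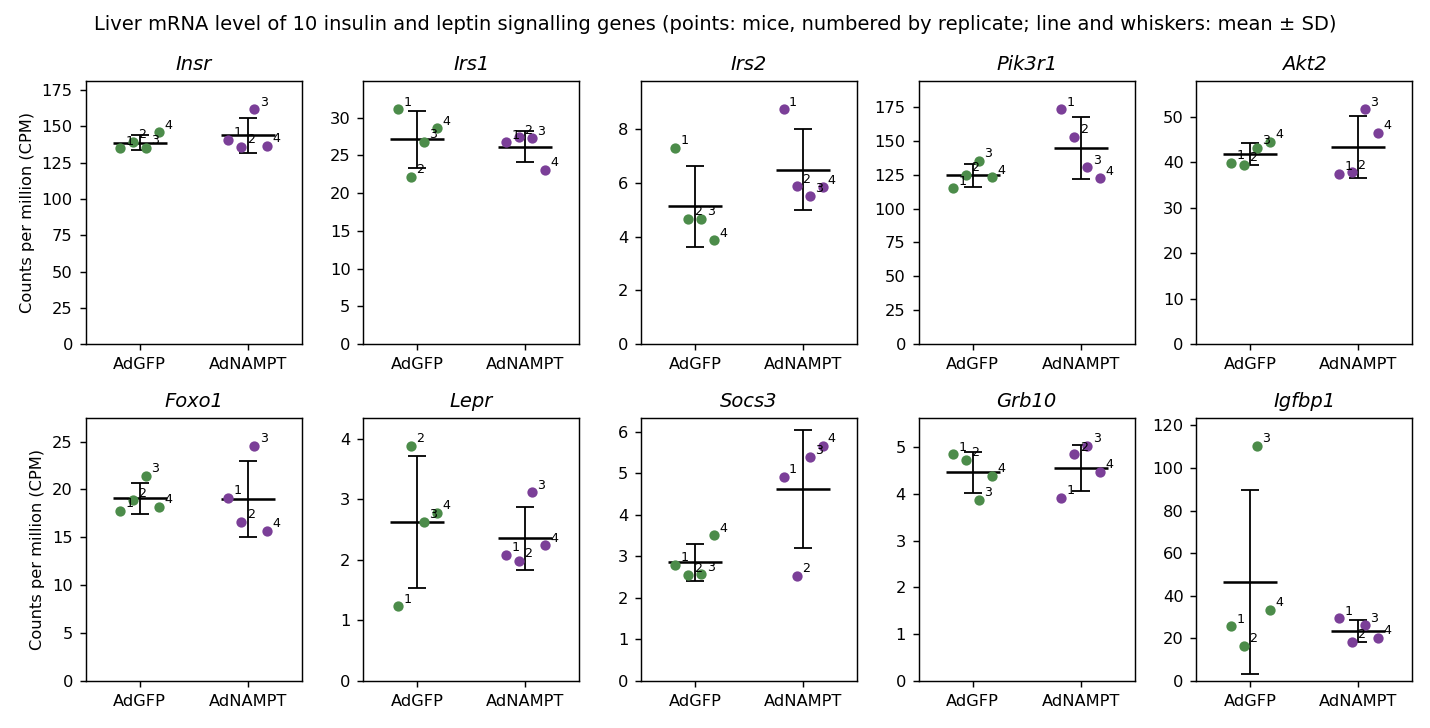
Level of each gene in CPM (vertical axes, from 0) in 4 AdGFP and 4 AdNAMPT livers; points are mice numbered by replicate, and the line and whiskers are the mean and SD. The groups overlap in all 10 panels, and Igfbp1 in AdGFP replicate 3 (110.4 CPM) stands above the other 7 livers.

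Insr, the insulin receptor (ENSMUSG00000005534, chr8:3150922-3279617), varied least of the 10 on the log2 scale (SD 0.08 over 8 livers). The AdGFP livers, in the order of replicates 1 to 4 used throughout, held 135, 139, 135 and 146 CPM, and the AdNAMPT livers held 141, 136, 162 and 136 CPM. In CPM the AdNAMPT range ran past the AdGFP range at the top through replicate 3 alone. On the normalised scale the AdNAMPT range, 136 to 156, ran past both ends of the AdGFP range of 141 to 152. The log2 fold change of Insr was -0.05 with SE 0.07 (limma adjusted p = 0.855), and the 95% interval of the fold reached from 0.866 to 1.07. Scaling by library size alone gave 0.03.

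The docking proteins were far apart in level. Irs1 (ENSMUSG00000055980, chr1:82233101-82291416) was at 31.1, 22.2, 26.8 and 28.6 CPM in AdGFP and at 26.7, 27.4, 27.3 and 23.0 CPM in AdNAMPT. In CPM all 4 AdNAMPT values fell inside the AdGFP range. On the normalised scale AdNAMPT ran from 23.0 to 27.4, its lowest liver below the AdGFP range of 24.1 to 32.6. The log2 fold change of Irs1 was -0.17 with SE 0.10 (limma adjusted p = 0.631). Irs2 (ENSMUSG00000038894, chr8:10986980-11008458), the docking protein that falls when insulin rises in liver, was at 7.31, 4.66, 4.66 and 3.87 CPM in AdGFP and at 8.75, 5.87, 5.53 and 5.84 CPM in AdNAMPT. Replicate 1 was the highest liver of each group, and the lowest AdNAMPT value lay above 3 of the 4 AdGFP values. For Irs2 the log2 fold change was 0.16 with SE 0.20 (limma adjusted p = 0.849). It ranged from 0.01 without AdGFP replicate 4 to 0.37 without AdGFP replicate 1. Irs1 overlaps Gm9747 and Irs2 overlaps 9530052E02Rik on the other strand, and since use of strand in counting is not given, reads of such pairs cannot be told apart.

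Pik3r1, the main regulatory subunit of PI3-kinase (ENSMUSG00000041417, chr13:101680563-101768217), was at 115, 125, 135 and 123 CPM in AdGFP and at 173, 153, 130.4 and 122 CPM in AdNAMPT. AdNAMPT replicates 1 and 2 lay above every AdGFP liver, and replicates 3 and 4 lay within their range. For Pik3r1 the log2 fold change was 0.09 with SE 0.10 (limma adjusted p = 0.807), and it was -0.01 without AdNAMPT replicate 2. Akt2, the AKT kinase most tied to insulin action (ENSMUSG00000004056, chr7:27591552-27640826), was at 39.9, 39.5, 43.2 and 44.5 CPM in AdGFP. In AdNAMPT it was at 37.6, 37.8, 51.7 and 46.5 CPM, so that in CPM 2 livers lay below the AdGFP range and 2 above it. On the normalised scale AdNAMPT replicate 4 was level with the highest AdGFP liver, both at 0.107 above the gene mean in log2 CPM. The log2 fold change of Akt2 was -0.05 with SE 0.10 (limma adjusted p = 0.914), and 0.03 with library size alone. Foxo1 (ENSMUSG00000044167, chr3:52268337-52350109), which AKT2 inactivates, was at 17.8, 18.9, 21.4 and 18.2 CPM in AdGFP and at 19.2, 16.6, 24.5 and 15.7 CPM in AdNAMPT. AdNAMPT livers held both the highest value and the lowest. Its log2 fold change was -0.13 with SE 0.13 (limma adjusted p = 0.794). These counts report the mRNA, not the phosphorylation by which these proteins are controlled. Gm20402 overlaps Foxo1 on the other strand.

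Lepr, the receptor disrupted in db/db mice (ENSMUSG00000057722, chr4:101717404-101815352), gave 18 to 62 reads per library. It was at 1.23, 3.88, 2.63 and 2.78 CPM in AdGFP and at 2.08, 1.98, 3.12 and 2.24 CPM in AdNAMPT. The lowest and the highest liver were both AdGFP, and all AdNAMPT values fell between them. The log2 fold change was -0.06 with SE 0.32 (limma adjusted p = 0.974), the 95% interval of the fold reached from 0.59 to 1.56, and library size alone gave 0.02.

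Socs3 (ENSMUSG00000053113, chr11:117966079-117970047), the inhibitor induced by STAT3, had the highest positive estimate of the 10. It was at 2.80, 2.54, 2.57 and 3.51 CPM in AdGFP and at 4.91, 2.53, 5.38 and 5.66 CPM in AdNAMPT. AdNAMPT replicates 1, 3 and 4 lay above all 4 AdGFP livers, while replicate 2 was the lowest of the 8. For Socs3 the log2 fold change was 0.45 with SE 0.26 (limma adjusted p = 0.636), a fold of 1.36 with a 95% interval from 0.912 to 2.04. Without AdNAMPT replicate 2 it was 0.81 (adjusted p = 0.116) and without AdNAMPT replicate 3 it was 0.09 (adjusted p = 0.918). Grb10, an adaptor that binds the activated receptor and damps its signal (ENSMUSG00000020176, chr11:11930508-12038683), was at 4.85, 4.73, 3.88 and 4.38 CPM in AdGFP and at 3.91, 4.85, 5.03 and 4.48 CPM in AdNAMPT. The ranges nearly coincided, and the log2 fold change was 0.00 with SE 0.13 (limma adjusted p = 0.996).

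Igfbp1, a secreted IGF-binding protein that rises in fasted liver and is repressed by insulin (ENSMUSG00000020429, chr11:7197782-7202546), varied most of the 10, with an SD of 0.87 on the log2 scale. It was at 25.6, 16.4, 110.4 and 33.3 CPM in AdGFP and at 29.5, 18.4, 26.1 and 20.2 CPM in AdNAMPT. AdGFP replicate 3 was 6.71 times the lowest liver, and the other 3 AdGFP livers enclosed all 4 AdNAMPT livers. Group means were 46.4 ± 43.2 CPM and 23.6 ± 5.13 CPM (SD, n = 4 each). This corresponds to a log2 fold change of -0.91 with SE 0.49 (limma adjusted p = 0.603), and -0.33 without AdGFP replicate 3 (adjusted p = 0.679). That liver also had the highest level of the gluconeogenic genes G6pc (828 CPM against 307 to 733 in the other 7) and Pck1 (4242 CPM against 2033 to 4212), of which G6pc was picked after its values were seen. Irs2 and Insr, which FOXO1 also raises, lay below their own means there, by -0.23 and -0.02 in TMM-scaled log2 CPM. Values of the other FOXO1-activated genes in this liver are not given here.

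**Figure D2:**
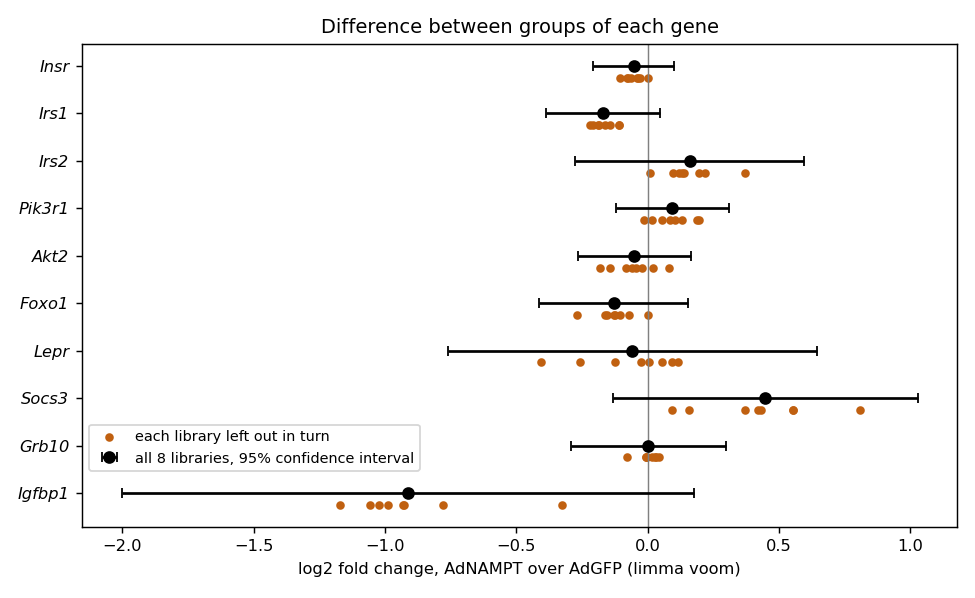
Log2 fold change, AdNAMPT over AdGFP (horizontal axis), of each gene with its 95% confidence interval from all 8 livers (black) and as a point estimate with each liver left out in turn (orange). Every interval crosses 0, and Igfbp1 moves from -0.91 to -0.33 when AdGFP replicate 3 is left out.

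Levels were compared between genes per length of exon sequence, as RPKM over all 8 livers. Igfbp1 came first at 23.0 ± 20.3 RPKM (SD, n = 8), then Insr at 14.7 ± 0.942 and Pik3r1 at 13.4 ± 1.92 RPKM. The ranges of these neighbours overlapped. Akt2 followed at 5.97 ± 0.685 RPKM, below Pik3r1 and above Foxo1 in all 8 livers, with no overlap of ranges on either side. Foxo1 at 3.43 ± 0.508 and Irs1 at 2.91 ± 0.313 RPKM overlapped. Irs1 was 2.02 times Irs2 (1.44 ± 0.391 RPKM), higher in 8 of 8 livers with no overlap. By this measure Irs1 was the more abundant docking protein mRNA in these livers, though both genes overlap a gene on the other strand. Irs2 and Socs3 (1.29 ± 0.471 RPKM) overlapped, and Socs3 lay above Grb10 (0.497 ± 0.0477 RPKM) without overlap. Lepr was last at 0.354 ± 0.114 RPKM, its range overlapping that of Grb10.

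**Figure D3:**
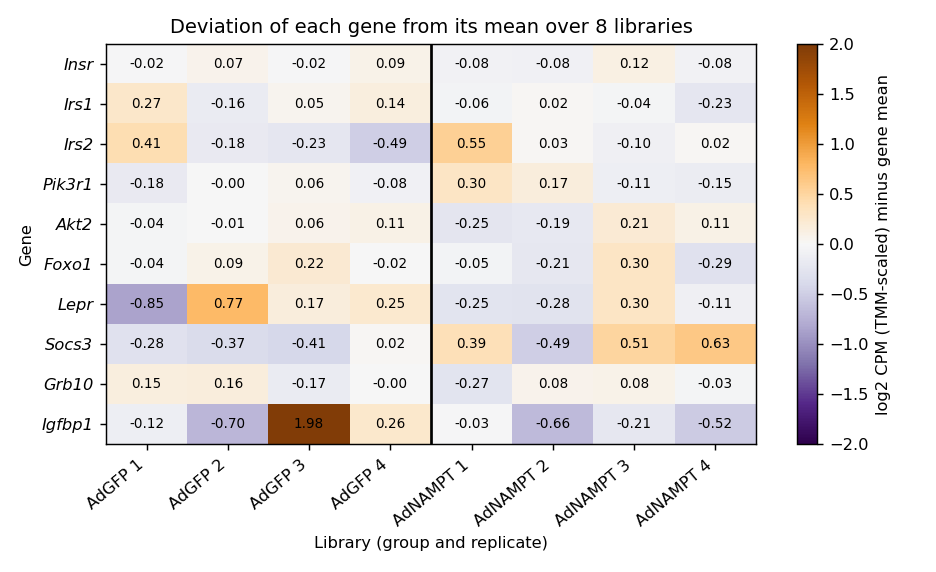
Deviation of each gene (rows) from its own mean over the 8 livers (columns), in log2 CPM after TMM scaling. Igfbp1 in AdGFP replicate 3 is at 1.98 and Lepr in AdGFP replicate 1 at -0.85, while Insr stays between -0.08 and 0.12.

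FOXO1 raises Insr, Irs2 and Igfbp1, and the leptin relay raises Socs3, so 6 pairs of the genes were compared across the 8 livers on normalised log2 CPM. All 8 livers were db/db, where the signalling isoform of LEPR is disrupted, so the pair of Lepr and Socs3 cannot test that relay. None of the 6 passed an adjusted p of 0.05 (exact permutation, Benjamini-Hochberg over the 6). Insr and Irs2 had the lowest p, with Pearson's r = -0.60 (exact permutation p = 0.122, adjusted 0.700) and Spearman's rho = -0.64 (exact permutation p = 0.0962, adjusted 0.577). The sign was negative within AdGFP (r = -0.67) and within AdNAMPT (r = -0.50), and r was -0.45 without the 2 livers farthest from the median of Insr. With counts scaled by library size alone, r was -0.21, so the size of this value depends on the normalisation. Foxo1 and Igfbp1 gave r = 0.50 (exact permutation p = 0.233, adjusted 0.700) and rho = 0.29 (exact permutation p = 0.501, adjusted 0.752), with r = 0.72 without 2 livers, 0.69 within AdGFP, 0.62 within AdNAMPT and 0.45 on library size alone. Irs2 and Igfbp1, which share FOXO1 as an activator, gave r = -0.26 (exact permutation p = 0.520, adjusted 1.0) and rho = -0.24 (exact permutation p = 0.582, adjusted 0.752), with r = -0.34 without 2 livers, and the sign differed between AdGFP (r = -0.25) and AdNAMPT (r = 0.60). Lepr and Socs3 gave r = 0.01 (exact permutation p = 0.982, adjusted 1.0) and rho = 0.17 (exact permutation p = 0.703, adjusted 0.752), with r = 0.08 without 2 livers, -0.05 within AdGFP and 0.52 within AdNAMPT. Insr and Igfbp1 gave r = 0.00 and rho = 0.26 (exact permutation p = 1.0 and 0.536, adjusted 1.0 and 0.752), with r = 0.01 without 2 livers, -0.54 within AdGFP and 0.37 within AdNAMPT. Irs1 and Irs2 gave r = 0.06 and rho = -0.14 (exact permutation p = 0.884 and 0.752, adjusted 1.0 and 0.752), with r = 0.45 within AdGFP and 0.04 within AdNAMPT, and r turned to -0.47 without 2 livers. Each within-group value rests on 4 livers and was not tested.

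The genes most like the 3 that varied most were found by Pearson's r over the 8 livers, as a description of the highest among 12270 tested genes. Igfbp1 was most like Angptl4, a secreted inhibitor of lipoprotein lipase (r = 0.997), Rnf169 (r = 0.971) and Arl4d (r = 0.961). Angptl4 was at 82.1, 65.7, 143 and 93.3 CPM in AdGFP and at 91.0, 75.7, 89.2 and 76.9 CPM in AdNAMPT, with the same lowest and highest liver as Igfbp1. Socs3 was most like Klhdc8b (r = 0.989), the lipoprotein receptor gene Lsr (r = 0.979) and H2-T24 (r = 0.927), and Lepr was most like Tmem64 (r = 0.976), Zfp667 (r = 0.957) and Khdrbs3 (r = 0.951). Lepr had only 18 to 62 reads per library, and it and these 3 genes were all lowest in AdGFP replicate 1.

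**Figure D4:**
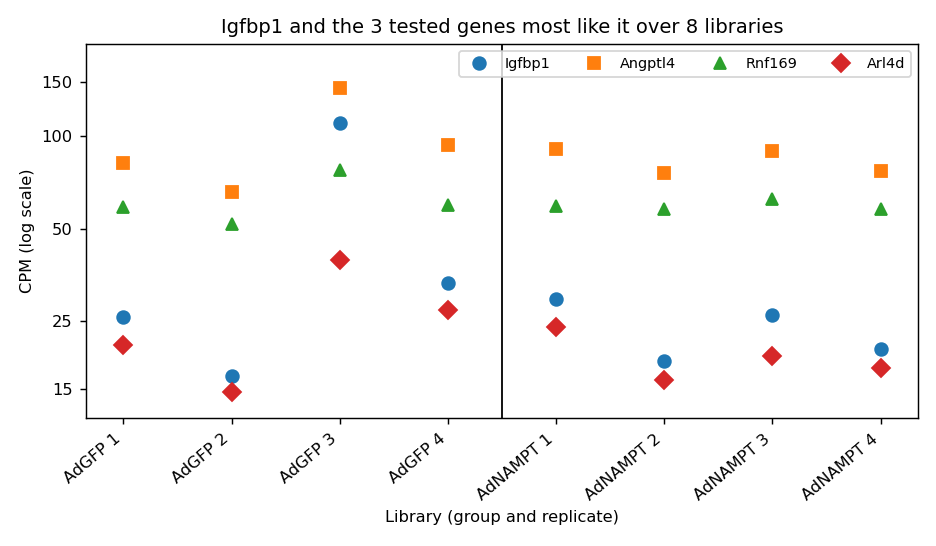
CPM on a log axis of Igfbp1 and of the 3 tested genes with the highest Pearson's r to it, in each of the 8 livers. All 4 genes are highest in AdGFP replicate 3, where Igfbp1 is at 110.4 CPM and Angptl4 at 143 CPM, and lowest in AdGFP replicate 2.

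The other genes of these pathways were taken from 7 lists holding 104 further genes, of which 96 were tested. None passed the adjusted test in limma or in edgeR, while DESeq2 called 1 (Cish). At an unadjusted p under 0.05 there were 3 higher and 6 lower, 9.38% of those tested beside 9.69% of all genes, and the groups did not overlap for 3 of them on the normalised scale beside 4.79%. The median log2 fold change was 0.01, with 53 estimates above 0 and 43 below. In the counts per list that follow, a list keeps those of the 10 genes that belong to it, and the lowest p is that of a gene outside the 10.

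Among 17 tested genes of the relay from receptor to AKT, 0 passed the adjusted test, 10 estimates were above 0 and 7 below, and the median was 0.03. The lowest p values were those of the adaptor Grb2 (log2 fold change -0.40, SE 0.15, limma adjusted p = 0.453) and of Pik3r2, a regulatory PI3-kinase subunit. Pik3r2 was at 13.6 to 13.9 CPM in AdGFP and at 15.7 to 17.2 CPM in AdNAMPT. Its groups did not overlap, yet with a log2 fold change of 0.17 and SE 0.08 it missed the adjusted test (limma adjusted p = 0.506). Of 19 AKT effectors, 0 passed, with a median of 0.02 and the lowest p in the kinase Mtor (log2 fold change 0.17) and in Foxo3 (log2 fold change -0.17). Of 18 inhibitors of insulin signalling, 0 passed, with a median of 0.01 and the lowest p in the pseudokinase Trib3 (log2 fold change -0.36) and the phosphatase Phlpp2 (log2 fold change -0.32).

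Of 24 tested genes of the leptin and JAK-STAT relay, 0 passed in limma, with 9 estimates above 0 and 15 below and a median of -0.05. Cish, a STAT5-induced member of the SOCS family (chr9:107296026-107302784), was at 0.752, 1.48, 1.02 and 0.365 CPM in AdGFP and at 6.91, 1.84, 3.12 and 4.77 CPM in AdNAMPT. All 4 AdNAMPT livers lay above all 4 AdGFP livers, at 5 to 83 reads per library. The log2 fold change was 1.91 with SE 0.47 (limma adjusted p = 0.228), and DESeq2 gave an adjusted p of 0.000708. Over all 16 alternatives the estimate ran from 1.55 to 2.19 and the adjusted p from 0.000708 to 0.535, with DESeq2 as the 1 call. Gm17040 and Gm17041 overlap Cish on the other strand. Stat3 itself was at 96.2 to 110.0 CPM in AdGFP and at 90.9 to 98.7 CPM in AdNAMPT. On the normalised scale the groups did not overlap, at 100.5 to 115 in AdGFP and 90.8 to 95.4 in AdNAMPT, and the log2 fold change was -0.21 with SE 0.07 (limma adjusted p = 0.392).

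Of 12 genes that FOXO1 activates and insulin represses, 0 passed, 4 estimates were above 0 and 8 below, and the median was -0.10. Pck1, which encodes the gluconeogenic enzyme PEPCK, had the lowest p (log2 fold change -0.49, SE 0.17, limma adjusted p = 0.425), followed by the coactivator Ppargc1a (log2 fold change -0.27). Of 9 lipogenic genes that insulin induces, 0 passed and 9 estimates were above 0, with a median of 0.69. Among all tested genes, 6190 of 12270 estimates were above 0. The summed level of the 9 was 3674 to 22677 CPM in AdGFP and 3832 to 30246 CPM in AdNAMPT, so the groups overlapped. Scd1, the stearoyl-CoA desaturase, spanned 1949 to 18115 CPM in AdGFP and 2630 to 22888 CPM in AdNAMPT, a log2 fold change of 1.29 with SE 0.65 (limma adjusted p = 0.563) that ran from 0.74 without AdGFP replicate 1 to 1.71 without AdNAMPT replicate 1. The highest estimate of all these lists was that of Pnpla3 (2.0, SE 1.14, limma adjusted p = 0.627), named after its value was seen. Of 11 tested genes of the IGF family and its binding proteins, 0 passed, with a median of -0.10 and the lowest p in Igf1 (log2 fold change -0.35, SE 0.10, limma adjusted p = 0.349) and in Igfals (log2 fold change -0.41, limma adjusted p = 0.453).

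**Figure D5:**
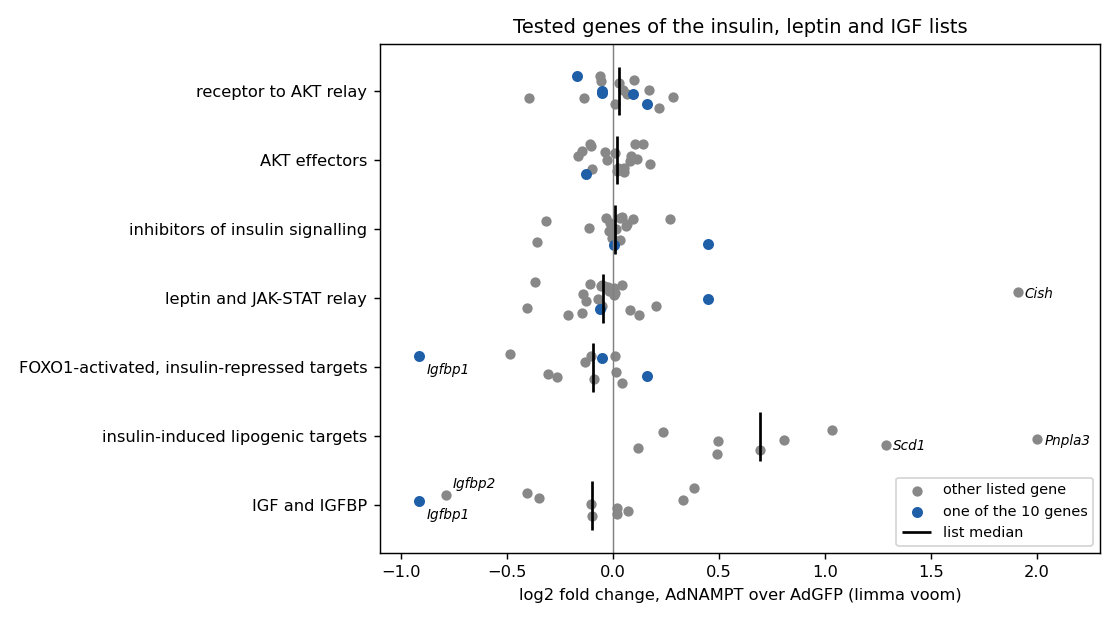
Log2 fold change, AdNAMPT over AdGFP (horizontal axis), of every tested gene in 7 lists (rows), with the 10 genes in blue, other listed genes in grey and the list median as a black bar; points are spread vertically for legibility and some genes are in more than 1 list. Medians lie between -0.10 and 0.03 except for the insulin-induced lipogenic genes at 0.69.

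Family partners of the 10 genes also missed the adjusted test. Akt1 was at 7.97 RPKM over the 8 livers, beside 5.97 RPKM for Akt2, with a log2 fold change of -0.14. Grb14, the relative of Grb10 best known from liver, was at 5.79 RPKM and Grb7 at 14.3 RPKM, against 0.497 RPKM for Grb10, and their log2 fold changes were -0.11 and -0.02. Pik3r3 gave 0.22 and Leprot, a gene beside Lepr, -0.15. Socs2 gave 0.08 and ran from -0.57 to 0.75 over the alternatives. Among binding proteins, Igfbp2 gave -0.79 with SE 0.53 (-1.18 to -0.34 over the alternatives), Igfbp3 0.07 and Igfbp4 -0.10. Socs1 (0.0731 to 0.583 CPM) and Irs3 (0 to 0.341 CPM) did not pass the filter, and Irs4 had 0 reads in all 8 livers. The signs of Grb7, Socs2 and Igfbp3 turned under some of the alternatives, and those of the other partners named and tested did not.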

How the data were processed

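Libraries were made from liver RNA of 8 db/db mice, 4 AdGFP and 4 AdNAMPT, grouped by sample title. Ribo-Zero is named in the labels and selection of poly-A RNA in the methods, and which applies is not settled. The authors aligned single reads with STAR 2.4.0b to GRCm38 and counted uniquely aligned reads per gene with featureCounts 1.4.5, per the submitters' processing notes. The deposited counts are whole reads for 41388 Ensembl features. The deposited CPM are counts scaled to each library's own total, and the deposited RPKM are those CPM per kilobase of exon; both matched a recomputation from the counts. Symbols (40340 features) and gene overlaps came from GENCODE M21, and gene coordinates are those of the files.

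Following the study's methods, 355 ribosomal RNA features and genes not over 1 CPM in at least 3 libraries were left out, and 12270 genes were fitted with limma 3.58.1 (voomWithQualityWeights on TMM-scaled counts, group as the only term, Benjamini-Hochberg adjustment over all 12270). Fits without 1 library required 1 library fewer. The fitting code was tested on simulated counts. The alternatives were edgeR 4.0.16 (quasi-likelihood), DESeq2 1.42.0, no sample weights, DESeq2 size factors, library size alone, no filter, a mean count of at least 10, a replicate block, an unadjusted threshold and each library left out in turn. Correlations used log2 CPM with a prior count of 2 and two-sided exact permutation over all pairings, with a smallest possible p of 2.48e-05. Libraries of 12006713 to 19879814 counts set a floor of 3 counts at 0.151 to 0.250 CPM, which covers counting error only. R 4.3.3 ran the fits; tables, permutations and plots were made in Python 3.11.15 (scipy 1.17.1, matplotlib 3.10.9).

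The 10 genes and all gene lists were chosen with earlier results of these data known. Beyond the 10, the genes named were the 2 with the lowest unadjusted p in each pathway list, any listed gene passing the adjusted test, fixed family partners (Irs3, Irs4, Akt1, Foxo3, Grb14, Grb7, Pik3r2, Pik3r3, Socs1, Socs2, Cish, Igfbp2, Igfbp3, Igfbp4 and Leprot) and, for the 3 of the 10 with the highest SD, the 3 tested genes with the highest Pearson's r; exceptions are marked where they occur. Some genes that this rule names are not reported here.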

Additional observations from a re-analysis of the deposited data

Results flagged for a closer look

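In each of 76 groups of 4 livers (the 10 genes and other genes named here, in AdGFP and in AdNAMPT), the highest or lowest liver was compared with the rest by Dixon's ratio, the gap to its neighbour over the whole range, and set against Dixon's 95% critical value for 4 values. That value was exceeded 4 times, where chance would give about 3.8, or 1 in 20 groups, and all 4 were in AdNAMPT. Irs1 was low in AdNAMPT replicate 4 (23.0 CPM, ratio 0.851), and Irs2 was high in AdNAMPT replicate 1 (8.75 CPM, ratio 0.894). Among the other genes, Igf1 was high in AdNAMPT replicate 1 (476.2 CPM, ratio 0.841) and the clock gene Per2 was low in AdNAMPT replicate 4 (31.2 CPM, ratio 0.887). Igfbp1 in AdGFP replicate 3, at 110.4 CPM, had a ratio of 0.820 and stayed just under the critical value.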

How the results depend on the processing

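None of the 10 genes passed the adjusted threshold under any of 16 alternative fits, and the estimates of Irs1, Irs2, Socs3 and Igfbp1 kept their sign in all 16. The count of genes changed among all tested was 34, and 75 with DESeq2, 1189 at an unadjusted p under 0.05 and 28 to 38 with each liver left out in turn. Among the related genes 0 passed, against 1 with DESeq2 (Cish), 1 with the replicate block and 9 at an unadjusted p under 0.05. The log2 fold change of Grb10 turned to -0.062 with edgeR, -0.056 with DESeq2, -0.049 without sample weights and -0.036 without a filter. With library size alone, Insr turned to 0.030, Akt2 to 0.029 and Lepr to 0.020, r of Insr and Igfbp1 turned to -0.085, and the genes at an unadjusted p under 0.05 split into 1395 higher and 214 lower, against 570 and 619. The correlation of Irs1 and Irs2 turned to -0.47 without the 2 livers farthest from the median. With each liver left out in turn, log2 fold changes ran from -0.11 to 0.0013 for Insr, -0.013 to 0.20 for Pik3r1, -0.18 to 0.083 for Akt2, -0.27 to 0.0030 for Foxo1, -0.40 to 0.11 for Lepr and -0.079 to 0.043 for Grb10. The cause of these turns was not tested, and each of these fold changes lies within the 95% interval of the estimate from 8 livers.

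The titles number the mice of each group from 1 to 4, but the mice are different animals. Same-numbered livers deviated together by r = 0.23, -0.05, 0.21 and 0.01, and differently numbered livers by -0.30 to 0.24. These values do not settle whether the numbers pair the livers, and the main fit did not pair them. With the replicate block, 41 of all genes, 0 of the 10 and 1 of the related genes passed.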

Other observations

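In the limma fit, the weight of AdNAMPT replicate 1 was the lowest of all 8 (0.440), and its library held the fewest counts (12006713).

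Of 11 tested clock genes, 0 passed the adjusted test, with a median log2 fold change of -0.05 and the lowest p in Nr1d2 (log2 fold change -0.29, limma adjusted p = 0.312) and Per2 (log2 fold change 0.27, limma adjusted p = 0.431). Of 10 acute phase genes, which STAT3 drives in liver, 0 passed, 8 estimates were below 0, and the median was -0.18, with Orm2 at -0.49 (limma adjusted p = 0.371) and Fgg at -0.20 (limma adjusted p = 0.615). Of 8 endothelial and 8 stellate cell markers, all with reads, 0 passed in limma, with medians of 0.02 and 0.05. At an unadjusted limma p under 0.05 there were 3 stellate markers (2 higher and 1 lower in AdNAMPT) and 1 endothelial marker (higher), beside 9.69% of all genes. On the normalised scale the groups did not overlap for 2 stellate markers (1 higher, 1 lower) and 0 endothelial markers, beside 4.79% of all genes. Of 5 tested cholangiocyte markers and 2 tested lymphocyte and neutrophil markers 0 passed.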
